A study of Danio rerio with 2 samples.

Results

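The znf1000-series comprises the zebrafish zinc finger genes whose symbol is znf followed by 4 digits, the first of them a 1. The gene list of the deposited matrices holds 209 such identifiers under 172 symbols, of 27597 genes in all, and the rule that picks them uses the symbol only. Of the 209, 129 reached 50 unique molecular identifiers (UMIs, each standing for 1 captured transcript) summed over both libraries and form the basis of the counts below, and 80 did not, 1 of which stood at 0 in both libraries. The edge of the minimum lay at low counts: znf1104 was just inside with 50 UMIs, and znf1043 and znf1078 were just outside with 49 each. Such genes are counted among the zygotic ones, which the embryo transcribes itself, but the samples come from a single stage, so the onset of transcription could not be checked here.

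Members of this family encode proteins with arrays of C2H2 zinc fingers, small folds that each hold a zinc ion and together read a stretch of DNA. Vertebrate genomes carry large families of such genes that grew by local duplication, and in zebrafish many of the copies are nearly identical and sit in tandem clusters in a heterochromatin-rich chromosome arm. In other vertebrates many proteins of this kind bind transposable elements and bring in heterochromatin factors. In zebrafish embryos, genes of such clusters are known to be transcribed from the embryo's own genome soon after it is switched on. The role of most single members is not established, so the members below are described by their counts.

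The data are single-cell RNA counts of whole embryos at shield stage, the onset of gastrulation, with 1 library per genotype. The first library came from MZwnt11/slb embryos, which lack maternal and zygotic function of wnt11f2 (allele tx226 of silberblick), a gene for a non-canonical Wnt ligand, and the second from wildtype embryos, of which the study names the strain A2B2. Embryos were pooled for each library and their number is not given, so genotype, strain background and library cannot be told apart and no test between the genotypes was possible. Intervals are 95% intervals of counting error only and say nothing of the spread between embryos.

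The MZwnt11/slb library held 7911 cells and 40025626 UMIs (median 4595 per cell), and the wildtype library 8862 cells and 37370253 UMIs (median 3874 per cell). A total of 16 cell barcodes occurred in both. The mutated gene wnt11f2 had 1659 UMIs in MZwnt11/slb and 3710 UMIs in wildtype, but a count of transcript ends does not check the mutation. Levels are given in CPM, the UMIs of a gene per 1000000 UMIs of the library or cell class, so 3 UMIs, the floor used where a count was 0, correspond to 0.0750 CPM in MZwnt11/slb and 0.0803 CPM in wildtype. UMIs of a 3′ assay are not scaled to transcript length, and a member's rank depends on how well its 3′ end is annotated. Many members resemble each other so closely that reads may be dropped or assigned to a neighbouring copy, so each member's count is uncertain in that respect, and 41 of the 129 share their symbol with another identifier.

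The summed level of the family was lower in MZwnt11/slb than in wildtype. The 209 members together had 43924 UMIs in MZwnt11/slb and 62053 UMIs in wildtype. Scaled to depth this was 1097 CPM in MZwnt11/slb and 1660 CPM in wildtype, a log2 ratio of -0.60 (-0.62 to -0.58). The difference was also seen without the most abundant members, since the sum without the 5 members with the most UMIs gave -0.54 and the sum without the first 10 gave -0.56. The first 10 carried part of the gap, at 546 CPM in MZwnt11/slb and 848 CPM in wildtype (-0.64). Without znf1063, described below, the other 9 of them gave -0.37. The 80 members under 50 UMIs together showed a ratio on the same side (615 UMIs in MZwnt11/slb and 992 UMIs in wildtype, -0.79). Other zinc finger genes, 197 genes named znf, zbtb, zfp, zfx or zeb outside the series, summed to nearly the same level in both libraries, at 4453 CPM in MZwnt11/slb and 4754 CPM in wildtype (-0.095).

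Transcripts of the family were spread over many members. In MZwnt11/slb 54 members were needed to reach 90% of the family's UMIs, and in wildtype 57. The most abundant member, znf1035, had 7546 UMIs in MZwnt11/slb and 8229 UMIs in wildtype, and was seen in 55.0% of MZwnt11/slb cells and 54.6% of wildtype cells. It alone made up 17.2% of the family's UMIs in MZwnt11/slb and 13.3% in wildtype, with a log2 ratio of -0.22 (-0.27 to -0.18). The next member by total count, znf1007, had 3162 UMIs in MZwnt11/slb and 3339 UMIs in wildtype (-0.18). Both znf1035 and znf1007 thus differed little between the libraries.

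Among the next members by abundance the ratios spread further. Member znf1040 had 2604 UMIs in MZwnt11/slb and 2984 in wildtype (log2 ratio -0.30), znf1124 had 1821 in MZwnt11/slb and 2269 in wildtype (-0.42), and znf1050 had 1750 in MZwnt11/slb and 2077 in wildtype (-0.35). Member znf1041 had 1814 UMIs in MZwnt11/slb and 2931 UMIs in wildtype (-0.79). A wider gap was seen for znf1060, with 585 UMIs in MZwnt11/slb and 2401 UMIs in wildtype (-2.14, -2.27 to -2.01). The series also held abundant members without such a gap: znf1048 had 1109 UMIs in MZwnt11/slb and 1063 UMIs in wildtype (-0.04, interval -0.16 to 0.08). Member znf1147 was the only 1 of the 10 most abundant that was higher in MZwnt11/slb beyond counting error, with 1320 UMIs against 878 UMIs in wildtype (0.49). The remaining member of the 10, znf1063, was nearly absent from MZwnt11/slb and is described with the others of that kind.

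**Figure D1:**
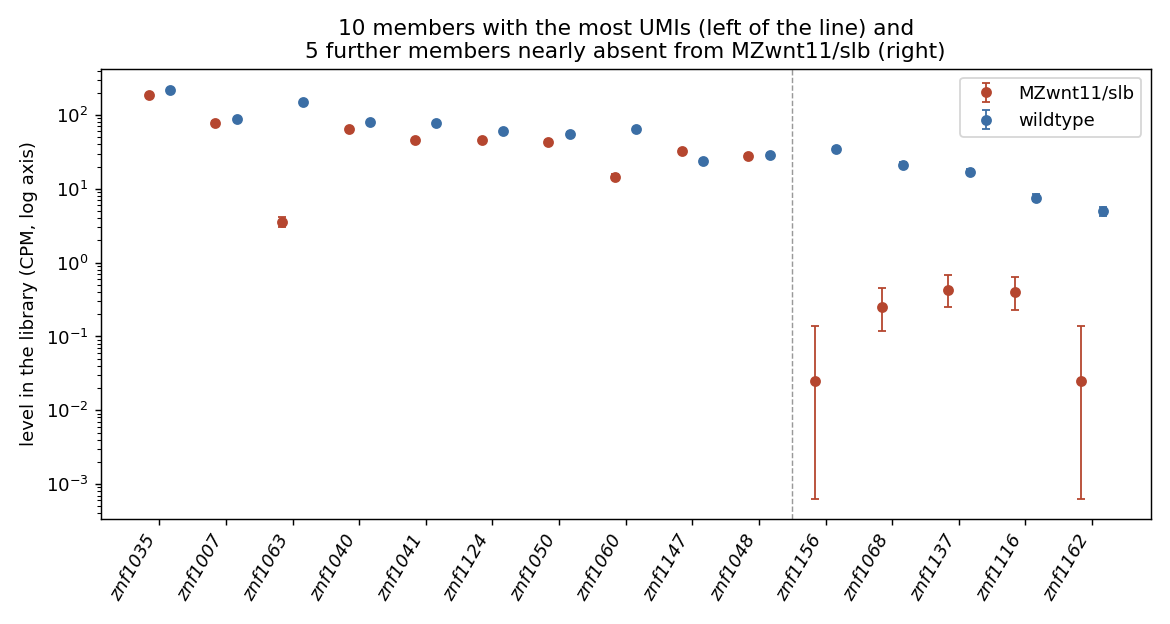
Level of single members in each library, in CPM on a log axis, with exact 95% Poisson intervals (counting error only). The 10 members with the most UMIs stand left of the dashed line and the other 5 members nearly absent from MZwnt11/slb right of it; most abundant members lie close together in both libraries, while znf1063 and the 5 on the right lie far apart, the least so znf1116 at 19.0-fold.

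A member was called nearly absent from a library when that library held less than 5% of the sum of its 2 CPM values. By this measure 6 of the 129 members (4.65%) were nearly absent from MZwnt11/slb, against a background of 1.12% of all 13440 genes with at least 50 UMIs. None of the 129 was nearly absent from wildtype, where the background was 0.595%. Among the 144 other zinc finger genes with at least 50 UMIs, 0 were nearly absent from either library.

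The largest difference in UMIs was that of znf1063, the third member of the family by total count. It had 143 UMIs in MZwnt11/slb and 5536 UMIs in wildtype, a log2 ratio of -5.37 (-5.62 to -5.13), or 41.5-fold lower. In wildtype it was detected in 41.2% of cells, and in MZwnt11/slb in 141 cells, 1.78% of the library, with at most 2 UMIs in a cell. The difference was seen in each large cell class: ectoderm-like cells held 90 UMIs in MZwnt11/slb and 3568 in wildtype (-5.32), meso-endoderm-like cells 15 in MZwnt11/slb and 780 in wildtype (-5.76), and enveloping layer-like cells 6 in MZwnt11/slb and 180 in wildtype (-5.04). The log2 fold of ectoderm-like over other cells was 0.91 (0.41 to 1.43) in MZwnt11/slb and 0.85 (0.77 to 0.93) in wildtype, and that of ectoderm-like over meso-endoderm-like cells was 1.35 (0.55 to 2.24) in MZwnt11/slb and 0.92 (0.80 to 1.03) in wildtype. The tilt to ectoderm-like cells was thus beyond counting error in both libraries. With 15 UMIs in meso-endoderm-like and 6 in enveloping layer-like cells of MZwnt11/slb, its size there was known only roughly.

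Member znf1156 was close to a presence or absence difference. It had 1 UMI in MZwnt11/slb and 1306 UMIs in wildtype, a log2 ratio of -10.45 with a wide counting interval (-15.75 to -7.97). The single UMI fell in an ectoderm-like cell. In wildtype the gene had 701 UMIs in ectoderm-like, 319 in meso-endoderm-like and 60 in enveloping layer-like cells, so it was present in all 3 large classes there. Member znf1162 showed the same at lower abundance, with 1 UMI in MZwnt11/slb and 186 UMIs in wildtype (-7.64, -12.95 to -5.14).

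The other nearly absent members kept 10 to 17 UMIs in MZwnt11/slb. Member znf1068 had 10 UMIs in MZwnt11/slb and 798 UMIs in wildtype (-6.42, -7.48 to -5.53). Its residual UMIs lay in 10 different cells. One of the 2 identifiers of znf1137 (ENSDARG00000086296) had 17 UMIs in MZwnt11/slb and 637 UMIs in wildtype (-5.33, -6.12 to -4.64), and 1 of the 2 identifiers of znf1116 (ENSDARG00000111046) had 16 UMIs in MZwnt11/slb and 284 UMIs in wildtype (-4.25, -5.08 to -3.52). None of the residual UMIs of the 6 members came from a barcode shared between the libraries.

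The 6 members together accounted for 188 UMIs in MZwnt11/slb and 8747 UMIs in wildtype, which was 0.428% of the family's UMIs in MZwnt11/slb and 14.1% in wildtype. Without them the family stood at 1093 CPM in MZwnt11/slb and 1426 CPM in wildtype, a log2 ratio of -0.38 (-0.40 to -0.37). The gap between the libraries was thus smaller without them, and on the same side.

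The threshold cut through a continuous spread of ratios. Just inside, the znf1116 identifier held 4.997% of its summed CPM in MZwnt11/slb, with an interval of 2.88% to 8%. Just outside, znf1061 held 5.38% there, with 34 UMIs in MZwnt11/slb and 558 UMIs in wildtype (log2 ratio -4.14). The next were znf1125 with 90 UMIs in MZwnt11/slb and 1201 UMIs in wildtype (-3.84) and znf1138 with 10 UMIs in MZwnt11/slb and 127 UMIs in wildtype (-3.77). They were followed at a distance by znf1168 (14 UMIs in MZwnt11/slb and 75 in wildtype, -2.52) and znf1126 (33 UMIs in MZwnt11/slb and 172 in wildtype, -2.48).

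A few members differed in the other direction. The member nearest to absence from wildtype was znf1131, with 485 UMIs in MZwnt11/slb and 25 UMIs in wildtype (log2 ratio 4.18, 3.60 to 4.82). Wildtype held 5.23% of its summed CPM, just above the threshold. The second identifier of znf1116 (ENSDARG00000112831) had 75 UMIs in MZwnt11/slb and 9 UMIs in wildtype (2.96, 1.96 to 4.14). Further members on this side were znf1076 with 144 UMIs in MZwnt11/slb and 37 in wildtype (1.86), znf1008 with 381 in MZwnt11/slb and 101 in wildtype (1.82), and znf1014 with 667 in MZwnt11/slb and 180 in wildtype (1.79). The series thus held members at both ends of the range, with more of them low in MZwnt11/slb.

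Counted over all 129 members, 40 (31.0%) were at least 2-fold lower in MZwnt11/slb, against 12% of all genes, and 12 (9.30%) were at least 2-fold higher, against 7.22% of all genes. The median log2 ratio was -0.48 over the members and -0.099 over all genes, and the quartiles of the members were -1.14 and 0.20. The interval of the ratio lay below 0 for 76 members (58.9%, against 42.6% of all genes) and above 0 for 25 (19.4%, against 29.8% of all genes), and it held 0 for 28. The share of lower members was set against genes of like abundance. Of the 24 members with at least 1000 UMIs, 6 (25%) were at least 2-fold lower in MZwnt11/slb, against 4.59% of the 6077 genes of that abundance, and 1 (4.17%, against 2.95%) was at least 2-fold higher. Of the 73 members with 100 to under 1000 UMIs, 24 (32.9%, against 16%) were lower and 6 (8.22%, against 9.47%) higher by this measure. Of the 32 members with 50 to under 100 UMIs, 10 (31.3%, against 25.1%) were lower and 5 (15.6%, against 15.1%) higher, which was near the background of that abundance on both sides.

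**Figure D2:**
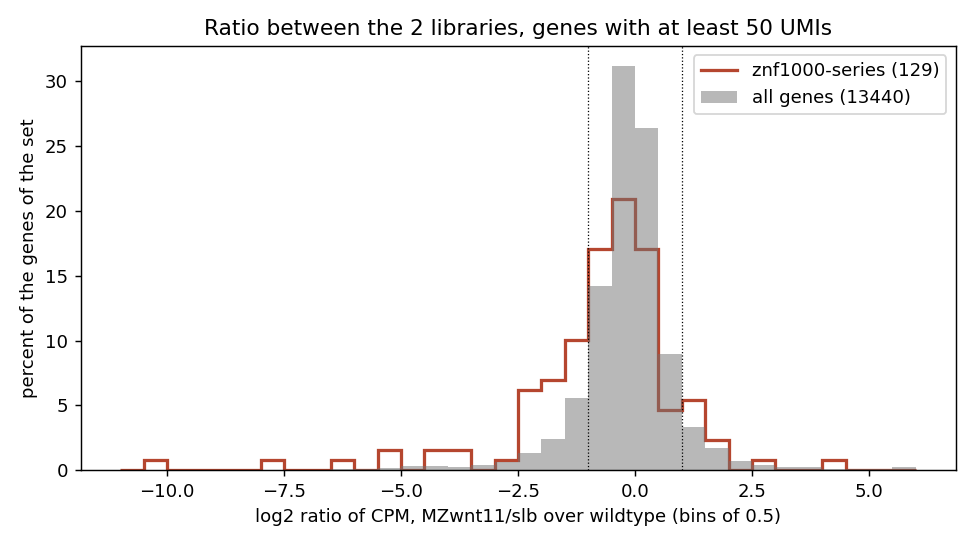
Distribution of the log2 ratio of CPM, MZwnt11/slb over wildtype, in bins of 0.5, for the 129 members (red line) and all 13440 genes with at least 50 UMIs (grey), as percent of each set. Dotted lines mark 2-fold, and ratios beyond the upper end of the axis are counted in its last bin. A larger share of members lies in the lower tail, with 31.0% at least 2-fold lower in MZwnt11/slb against 12% of all genes, and 9.30% at least 2-fold higher against 7.22%.

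Other zinc finger genes showed a narrower spread than the members, but the 2 lists were not matched for abundance. Of the 144 tested, 14 (9.72%, against 12% of all genes) were at least 2-fold lower in MZwnt11/slb. At least 2-fold higher were 3 (2.08%, against 7.22% of all genes), and the median log2 ratio was -0.17. A list of 20 heterochromatin genes included the histone methyltransferase genes setdb1a and setdb1b and the heterochromatin protein genes cbx3a and cbx5. In this list 1 gene (5%, against 12% of all genes) was at least 2-fold lower in MZwnt11/slb. At least 2-fold higher were 0, against 7.22% of all genes. The lower gene was cbx3b, with 125 UMIs in MZwnt11/slb and 304 UMIs in wildtype (-1.38, named after its values were seen). The median of this list was 0.025.

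Some identifiers that share a symbol differed from each other. Among 13 symbols with at least 2 identifiers of 50 or more UMIs, 2 had identifiers past 2-fold in opposite directions. The share among such symbols outside the series was not computed, so this count stands without a background. For znf1053 (named after its values were seen), ENSDARG00000098270 had 89 UMIs in MZwnt11/slb and 381 UMIs in wildtype (-2.20), while ENSDARG00000103310 had 590 UMIs in MZwnt11/slb and 209 UMIs in wildtype (1.40). The sum of both was nearly level, at 679 UMIs in MZwnt11/slb and 590 UMIs in wildtype (0.10, -0.06 to 0.27). For znf1116 the sum was 91 UMIs in MZwnt11/slb and 293 UMIs in wildtype (-1.79), so the symbol was lower although only 1 of its identifiers was nearly absent. For znf1137 both identifiers were lower, and the sum was 39 UMIs in MZwnt11/slb and 725 UMIs in wildtype (-4.32). Whether reads moved between such copies was not tested.

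**Figure D3:**
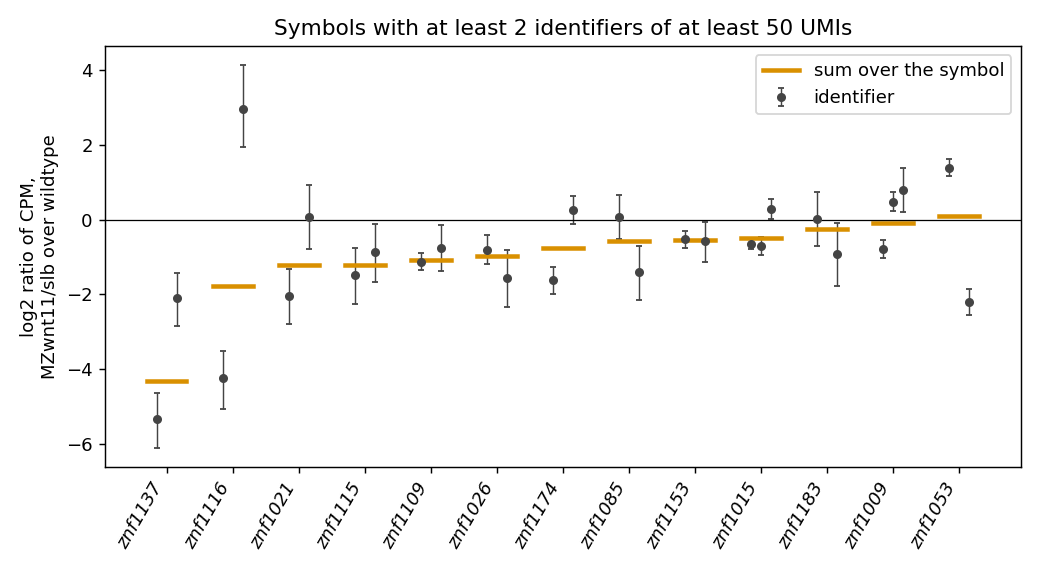
Log2 ratio of CPM, MZwnt11/slb over wildtype, for the 13 symbols that have at least 2 identifiers with at least 50 UMIs. Points are identifiers with 95% counting intervals and orange bars the sum over the identifiers of a symbol; the identifiers of znf1116 and znf1053 lie more than 2-fold from 0 in opposite directions, and the znf1053 sum lies at 0.10.

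To describe the cell-type pattern, cells of both libraries were clustered without the members and clusters were named from marker genes. The large classes were ectoderm-like (4268 MZwnt11/slb and 4931 wildtype cells), meso-endoderm-like (1767 MZwnt11/slb and 1933 wildtype cells) and enveloping layer-like cells (773 MZwnt11/slb and 823 wildtype cells), the last being the flat outer epithelium of the embryo. Smaller classes were axial mesoderm-like, yolk syncytial layer-like, primordial germ cell-like and p53 response-like cells, and 1 cluster with high UMI counts per cell stayed unnamed. The enveloping layer-like class is made up of different clusters in the libraries, since its main cluster held 588 cells of MZwnt11/slb only, and its counterpart 695 cells of wildtype only, while the remaining cluster was shared. The ectoderm-like class also differed in its makeup. A cluster of it led by mitochondrial genes held 654 MZwnt11/slb and 40 wildtype cells, and another, with kitlga and szl among its leading genes, held 454 MZwnt11/slb and 1947 wildtype cells. The class name is broad: the clusters led by per1b, by foxd3 and admp, and by mitochondrial genes each met the naming rule with 3 ectoderm markers, its minimum. At the finer clustering resolution of 2, a cluster led by foxd3 and admp was named axial mesoderm-like instead.

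The family was detected in every class, highest in ectoderm-like and lowest in enveloping layer-like cells. In ectoderm-like cells it summed to 1289 CPM in MZwnt11/slb and 1987 CPM in wildtype. Meso-endoderm-like cells had 1042 CPM in MZwnt11/slb and 1514 CPM in wildtype, and axial mesoderm-like cells 904 CPM in MZwnt11/slb and 1222 CPM in wildtype. Enveloping layer-like cells had 452 CPM in MZwnt11/slb and 583 CPM in wildtype, which was 2.64-fold lower than in the other cells of MZwnt11/slb and 3.11-fold lower than in the other cells of wildtype. Ectoderm-like exceeded meso-endoderm-like cells by a log2 fold of 0.31 (0.27 to 0.34) in MZwnt11/slb and 0.39 (0.36 to 0.42) in wildtype.

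The small classes lay between these ends. Yolk syncytial layer-like cells, from the nucleated layer that borders the yolk, had 964 CPM in MZwnt11/slb (80 cells) and 1123 CPM in wildtype (140 cells). Primordial germ cell-like cells had 1054 CPM in MZwnt11/slb and 1193 CPM in wildtype, from 25 cells in each library. Cells with a p53 response-like profile had 1231 CPM in MZwnt11/slb and 1730 CPM in wildtype. The intervals of the axial mesoderm-like, yolk syncytial layer-like and primordial germ cell-like levels overlapped in both libraries, so the order of these 3 is not resolved.

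**Figure D4:**
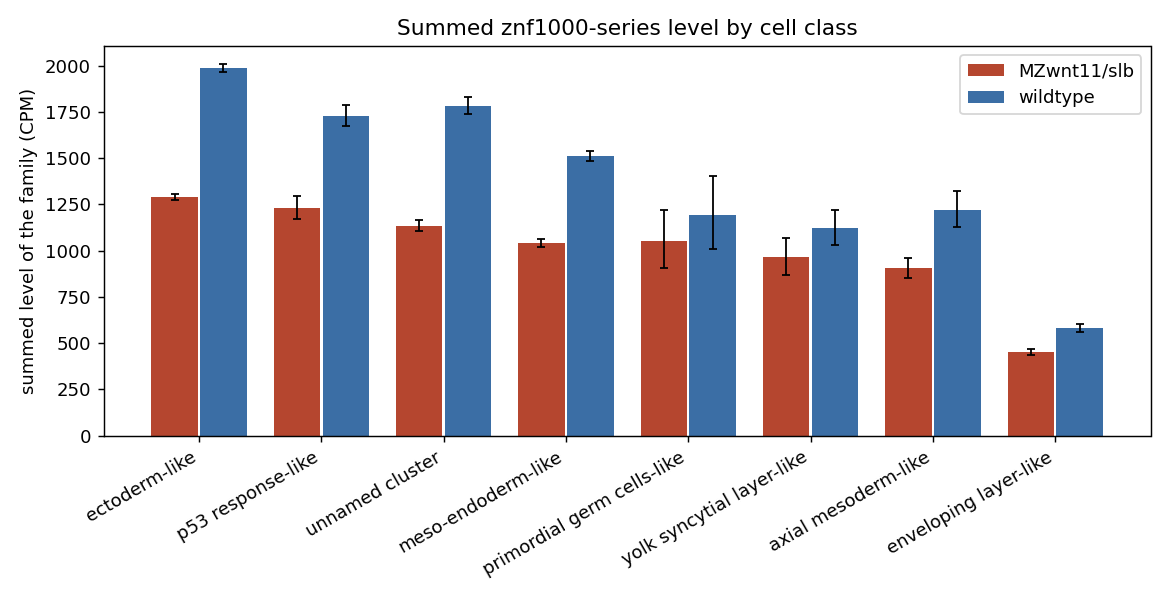
Summed level of the 209 members by cell class and library, in CPM of the class, with exact 95% Poisson intervals (counting error only). The enveloping layer-like class is lowest in both libraries, at 452 CPM in MZwnt11/slb and 583 CPM in wildtype, and in each class the MZwnt11/slb bar is lower than the wildtype bar.

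The lower level in MZwnt11/slb was seen across classes. The log2 ratio of the family sum was -0.62 in ectoderm-like cells (-0.65 to -0.60), -0.54 in meso-endoderm-like cells (-0.58 to -0.50), -0.43 in axial mesoderm-like cells (-0.58 to -0.29) and -0.37 in enveloping layer-like cells (-0.45 to -0.29). Within the ectoderm-like class, the cluster led by mitochondrial genes had 1028 CPM in MZwnt11/slb and 1643 CPM in wildtype, and the cluster with kitlga and szl 1182 CPM in MZwnt11/slb and 1867 CPM in wildtype. The enveloping layer-like class pools clusters in unlike shares. Its shared deep cluster held 185 of 773 MZwnt11/slb and 128 of 823 wildtype cells, with 767 CPM in MZwnt11/slb and 1106 CPM in wildtype. The clusters found in 1 library only had 274 CPM in MZwnt11/slb and 445 CPM in wildtype. Pooled ratios of this class, here and below, rest on that unlike mix. In yolk syncytial layer-like cells the log2 ratio was -0.22 (-0.42 to -0.02), and in primordial germ cell-like cells a difference was not detectable at this depth (-0.18, -0.50 to 0.15). Without the 6 nearly absent members the ratio was -0.41 in ectoderm-like, -0.35 in meso-endoderm-like and -0.19 in enveloping layer-like cells. In axial mesoderm-like cells it was then -0.26 (-0.41 to -0.11). In yolk syncytial layer-like cells it was then -0.017 (-0.22 to 0.19), and in primordial germ cell-like cells 4.58e-05 (-0.34 to 0.34). No difference was thus detectable in these last classes without the 6 members.

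Per cell, the family was seen as a few transcripts of different members. With every cell thinned to 2944 UMIs (1055 MZwnt11/slb and 2215 wildtype cells had fewer and were left out), an ectoderm-like cell held on average 3.78 family UMIs in MZwnt11/slb and 5.84 in wildtype. The variance over the mean was 1.13 in both libraries, close to the value of 1 that random sampling alone gives. At least 1 family UMI was found in 97.4% of ectoderm-like cells of MZwnt11/slb and 99.5% of those of wildtype, and in 94.1% of meso-endoderm-like cells of MZwnt11/slb and 98.5% of those of wildtype. In enveloping layer-like cells it was 61.7% (58.0 to 65.2) in MZwnt11/slb and 74.6% (71.4 to 77.7) in wildtype, with a mean of 1.10 UMIs in MZwnt11/slb and 1.57 in wildtype. Before thinning, 79.4% of these cells in MZwnt11/slb and 85.8% in wildtype had a family UMI, at median depths of 5710 UMIs in MZwnt11/slb and 5256 UMIs in wildtype.

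The enveloping layer-like level was uneven within the class. A cluster of 185 MZwnt11/slb and 128 wildtype cells with high depth (median 8857 UMIs in MZwnt11/slb and 7152 in wildtype) had 767 CPM in MZwnt11/slb and 1106 CPM in wildtype. Without it the class had 274 CPM in MZwnt11/slb and 445 CPM in wildtype, which was 21.3% of the ectoderm-like level of MZwnt11/slb and 22.4% of that of wildtype. As a gauge of free RNA and mixed droplets, genes of other layers were read in the same cells (chosen after their values were seen). The ectoderm gene sox3 stood there at 6.65% of its ectoderm-like level in MZwnt11/slb and 12.7% in wildtype, and the mesoderm gene tbx16 at 2.51% of its meso-endoderm-like level in MZwnt11/slb and 4.12% in wildtype. Against its ectoderm-like level, the base used for the family, tbx16 stood there at 8.81% in MZwnt11/slb and 11.7% in wildtype. With the deep cluster included, the family stood at 35.1% of its ectoderm-like level in MZwnt11/slb and 29.4% in wildtype. On that base sox3 was then at 21.6% in MZwnt11/slb and 18.6% in wildtype, and tbx16 at 40.1% in MZwnt11/slb and 26.7% in wildtype. Of its meso-endoderm-like level, tbx16 then had 11.4% in MZwnt11/slb and 9.41% in wildtype. How much of the family's level in this class comes from free RNA or mixed droplets was not tested.

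Single members followed the sum. Of 97 members with at least 100 UMIs, 89 (91.8%) were lower in enveloping layer-like than in other cells of both libraries, against 69.2% of all genes and 79.7% of other zinc finger genes. None of the 97 was higher there in both, against 17.7% of all genes. Members znf1138, znf1156, znf1162, znf1116 (ENSDARG00000111046) and znf1137 (ENSDARG00000086296) had 0 UMIs in this class of MZwnt11/slb. Only the floor of 3 counts put them on the higher side in that library, so they are not among the 89. At least 2-fold lower in both libraries were 60 of the 97 members (61.9%). The share was 18.7% of the 11756 genes with at least 100 UMIs and 41.5% of 123 other zinc finger genes. The class counts here and below were not matched for abundance within that minimum. At least 1000 UMIs were reached by 24 of the 97 members and by 6077 of the 11756 genes. Among members with at least 100 UMIs in the library itself, the interval of the fold lay below 0 for 57 of 60 in MZwnt11/slb and 67 of 75 in wildtype, and above 0 for 0 in MZwnt11/slb and 1 in wildtype. The share of all genes under this interval rule is not given here, so these counts stand without a background. The median log2 fold of the 97 was -1.39 in MZwnt11/slb and -1.62 in wildtype, while all genes had -0.50 in MZwnt11/slb and -0.57 in wildtype. Of the 20 heterochromatin genes, 9 (45%) were at least 2-fold lower, so lower values in this class were not particular to the series.

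Ectoderm-like cells had higher levels for most members, by small amounts. Of the 97 members, 85 (87.6%) were higher in ectoderm-like than in other cells of both libraries, against 54.4% of all genes and 68.3% of other zinc finger genes. The median log2 fold was 0.44 in MZwnt11/slb and 0.53 in wildtype, against 0.10 in MZwnt11/slb and 0.13 in wildtype over all genes, and 5 members (5.15%, against 0.459% of all genes) reached 2-fold in both. With at least 100 UMIs in the library itself, the interval lay above 0 for 43 of 60 members in MZwnt11/slb and 50 of 75 in wildtype, and below 0 for 0 in either. No share of all genes is given beside these interval counts. The other cells include the enveloping layer-like class, where most members were low. Against meso-endoderm-like cells alone, 64 of the 97 members (66.0%) were higher in ectoderm-like cells of both libraries. The share was 41.8% of all genes and 45.5% of other zinc finger genes. Among the 3 large classes the highest level was in ectoderm-like cells for 76 members (78.4%) in MZwnt11/slb and 74 (76.3%) in wildtype, against 46.4% of all genes in MZwnt11/slb and 49.8% in wildtype. It was in meso-endoderm-like cells for 21 members (21.6%) in each library, against 31.8% of all genes in MZwnt11/slb and 28.6% in wildtype. It was in enveloping layer-like cells for 0 members in MZwnt11/slb and 2 (2.06%) in wildtype, against 21.8% of all genes in MZwnt11/slb and 21.6% in wildtype. The 97 were picked by their UMIs summed over both libraries. For members nearly absent from MZwnt11/slb, the highest class there therefore rests on few UMIs, and for znf1156 and znf1162 on 1 UMI each. Meso-endoderm-like cells were near the average, with a median of -0.10 in MZwnt11/slb and -0.06 in wildtype.

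**Figure D5:**
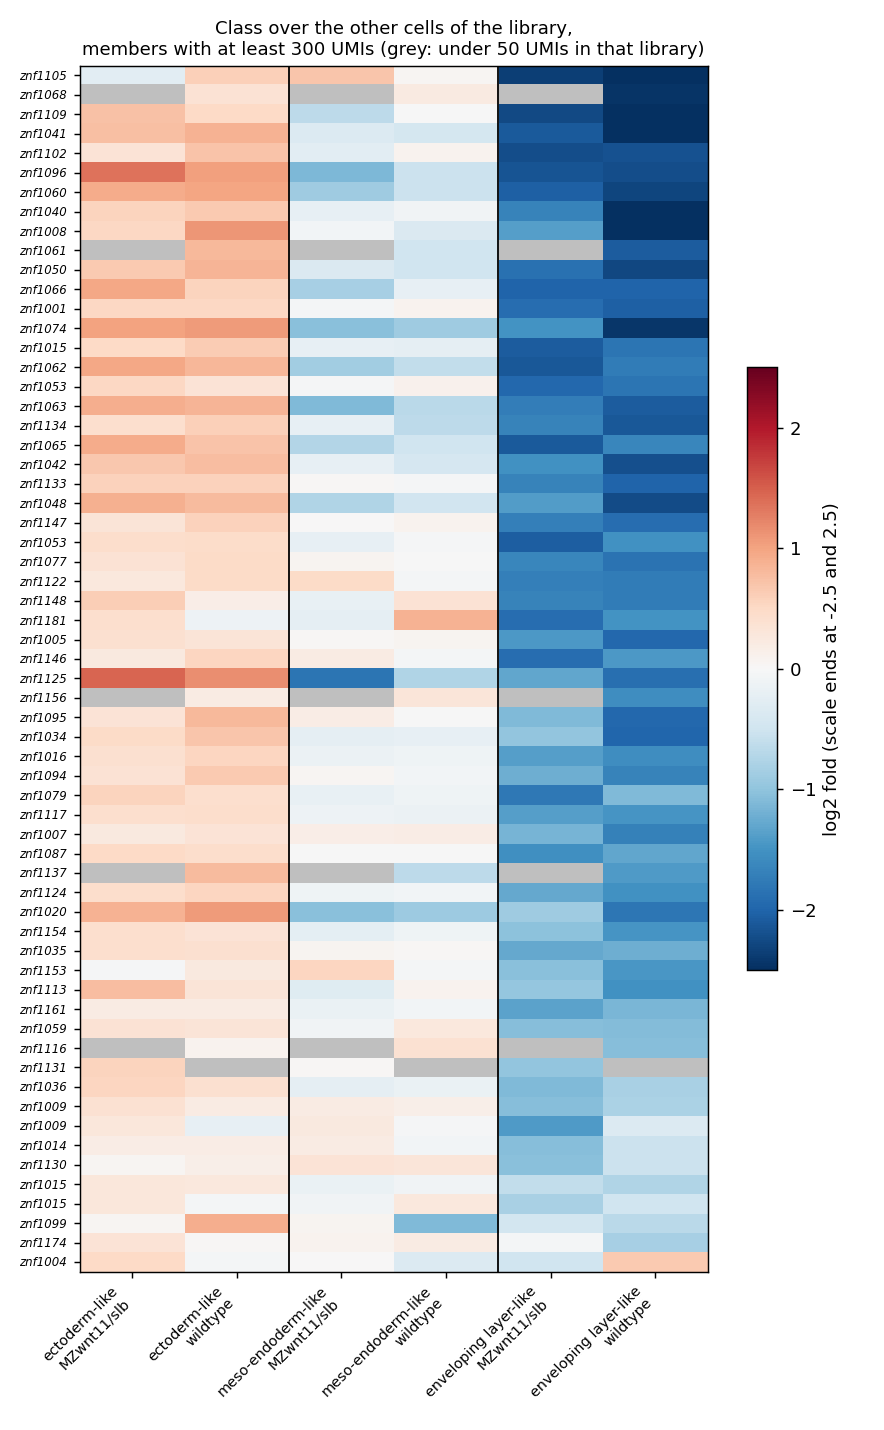
Log2 fold of a cell class over the other cells of the same library for the members with at least 300 UMIs, with the MZwnt11/slb column left of the wildtype column in each class (grey: under 50 UMIs in that library). Members are sorted by their mean enveloping layer-like fold; that pair of columns is below 0 for nearly all members, with znf1004 in wildtype above 0 at 0.66.

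The abundant members shared this profile to different degrees. For znf1035, ectoderm-like cells had 218 CPM in MZwnt11/slb and 251 CPM in wildtype, and enveloping layer-like cells 84.4 CPM in MZwnt11/slb and 101 CPM in wildtype. Its log2 fold in enveloping layer-like cells was -1.27 (-1.42 to -1.13) in MZwnt11/slb and -1.23 (-1.37 to -1.09) in wildtype, so it was among the milder of the 10. The steepest were znf1041, with -2.11 in MZwnt11/slb and -2.49 in wildtype, and znf1040 in wildtype with -2.62 (-1.67 in MZwnt11/slb). Member znf1007 was near its average in meso-endoderm-like cells, at 86.2 CPM in MZwnt11/slb and 99.3 CPM in wildtype, about the ectoderm-like value of 86.2 CPM in MZwnt11/slb and 99.8 CPM in wildtype. By contrast znf1048 was lower in meso-endoderm-like cells, at 17.9 CPM in MZwnt11/slb and 21.6 CPM in wildtype, than in ectoderm-like cells, at 36.5 CPM in MZwnt11/slb and 36.0 CPM in wildtype.

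A small group was more strongly tilted to ectoderm-like cells. At least 2-fold above meso-endoderm-like cells in both libraries were 4 of the 97 members (4.12%, against 0.876% of all genes and 0 of 123 other zinc finger genes), and 0 were 2-fold the other way, against 2.82% of all genes. They were znf1020, znf1074, znf1125 and znf1145 (the first 2 named after their values were seen). For znf1020 the log2 ratio of ectoderm-like over meso-endoderm-like cells was 1.28 (0.69 to 1.93) in MZwnt11/slb and 1.19 (0.92 to 1.46) in wildtype. For znf1074 it was 1.32 (0.84 to 1.85) in MZwnt11/slb and 1.18 (0.77 to 1.61) in wildtype. For znf1125 it was 2.18 (0.98 to 3.68) in MZwnt11/slb and 1.08 (0.84 to 1.33) in wildtype. Meso-endoderm-like cells held 6 znf1125 UMIs in MZwnt11/slb and 162 in wildtype. For znf1145 the log2 ratio was 1.62 (0.11 to 3.59) in MZwnt11/slb and 1.09 (0.19 to 2.12) in wildtype. It had 4 UMIs in meso-endoderm-like cells of MZwnt11/slb and 12 in those of wildtype, so its size was known only roughly. Of these 4 members, znf1125 was also among the lowest ratios between the libraries. Member znf1020 had 249 UMIs in MZwnt11/slb and 1139 UMIs in wildtype (-2.29). The highest fold of ectoderm-like over all other cells was that of znf1145, at 1.31 (0.32 to 2.37) in MZwnt11/slb and 1.48 (0.76 to 2.25) in wildtype.

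Higher in meso-endoderm-like than in other cells of both libraries were 20 of the 97 members (20.6%), against 32.9% of all genes. Among the 20 were znf1156 and znf1162, which had 0 UMIs in this class of MZwnt11/slb. Only the floor of 3 counts placed them on the higher side in that library. For each of the other classes, the member with the highest fold is given here. In meso-endoderm-like cells the highest fold was that of a znf1174 identifier (ENSDARG00000100361), with 41 UMIs in MZwnt11/slb and 33 UMIs in wildtype, at 0.67 (0.12 to 1.21) in MZwnt11/slb and 0.69 (0.06 to 1.30) in wildtype. In axial mesoderm-like cells it was that of a znf1015 identifier (ENSDARG00000074298), at 0.71 (0.17 to 1.20) in MZwnt11/slb and 0.33 (-0.41 to 0.98) in wildtype, where the interval held 0. In p53 response-like cells znf1134 stood at 1.26 (0.22 to 2.14) in MZwnt11/slb, from 11 UMIs, and 1.40 (0.72 to 2.02) in wildtype, from 24 UMIs. For znf1133 in yolk syncytial layer-like cells and znf1007 in primordial germ cell-like cells, the highest of the few members with 10 UMIs there in each library, the intervals held 0 in both.

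Among members with at least 100 UMIs in a library, 1 lay above 0 in enveloping layer-like cells beyond counting error, and in wildtype only. Member znf1004 (ENSDARG00000097098) had 23 UMIs in enveloping layer-like cells of MZwnt11/slb and 87 UMIs in those of wildtype. Its log2 fold over other cells was -0.49 (-1.18 to 0.13) in MZwnt11/slb and 0.66 (0.31 to 1.0) in wildtype. Its enveloping layer-like fold was the highest among members with at least 10 UMIs in the class in each library. The libraries lay on opposite sides of 0, so no common pattern is given for it.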

How the data were processed

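ACME-fixed whole embryos at shield stage were dissociated, sorted on DAPI to enrich single cells, and made into 10x Chromium 3′ libraries. The deposited values are UMI counts per gene and cell, which the authors made with Cell Ranger (version 6.1.1 and build GRCz11 in the submitters' processing notes); the study's methods name a later version of Cell Ranger, so the version is uncertain, and versions differ in whether intronic reads are counted by default. For the annotation release, the intron setting and reads matching several genes, nothing is given in the sources used here. All deposited cells were used. Counts were summed per library or class, scaled to CPM and compared as log2 ratios (MZwnt11/slb over wildtype, or class over other cells) with exact conditional Poisson intervals (95%); shares of cells carry exact binomial intervals. A count of 0 was set to 3 for a ratio. No test was run, since each genotype has 1 library. The members, lists and markers were chosen with earlier results of these data known.

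Cells were clustered on 17362 genes seen in at least 10 cells, without the members (size factors, log10 of value plus 1, 30 principal components, residuals on log10 UMIs and sample, 20 neighbours, Leiden at resolution 1, scanpy 1.11.5, leidenalg 0.10.2). A cluster took a class name from at least 3 markers with 10 UMIs each at 1.5-fold or more, and its top 10 genes could not hold more markers of a rival class than of its own. Doublets were not removed. Named members are the 10 with the most UMIs, the nearly absent ones, the 5 highest and 5 lowest other ratios, the highest fold per class (at least 100 UMIs, and 10 in the class in each library) and those at the 50 UMI minimum. Scripts were tested on simulated data. Sequences of the members were not analysed here, and no coordinates are printed; 193 of the 209 identifiers were found in a gene name table, 159 of them under the same symbol. Alternatives covered thresholds, scaling, cell filters, clustering and thinning.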

Additional observations from a re-analysis of the deposited data

Results flagged for a closer look

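Member znf1060 (ENSDARG00000103441) was flagged in p53 response-like cells because its fold over other cells lay on opposite sides of 0 in the libraries. It was picked by its values from many pairs of member and class, whose number is not given here. The intervals make no allowance for that choice. Its fold was 0.76 (0.17 to 1.30) on the log2 scale in MZwnt11/slb, from 29 UMIs, and -0.33 (-0.64 to -0.05) in wildtype, from 100 UMIs. The difference, MZwnt11/slb minus wildtype, was 1.10, and it was not tested. Its log2 folds in ectoderm-like cells were alike, at 0.93 in MZwnt11/slb and 0.98 in wildtype.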

How the results depend on the processing

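The 6 members nearly absent from MZwnt11/slb became 3 at a share of 2%, and the count over both libraries became 10 at 10%, with 1 of them absent from wildtype. Likewise 1 member was nearly absent from wildtype with a minimum of 20 UMIs, with median-of-ratios scaling (which moved every log2 ratio by 0.083) and within meso-endoderm-like cells. Within enveloping layer-like cells 28 members reached 50 UMIs, and 2 of these were nearly absent from MZwnt11/slb there. Requiring the upper end of the interval below 5%, or summing identifiers that share a symbol (chosen after seeing the data), left 5. Median-of-ratios scaling also left 5 nearly absent from MZwnt11/slb, beside the 1 nearly absent from wildtype. Of the 88 members whose symbol has 1 identifier, 4 were nearly absent from MZwnt11/slb. After cells under 1000 UMIs or over 10% mitochondrial UMIs were removed, 7 of 124 were. Members at least 2-fold lower in MZwnt11/slb were 7 of 28 within enveloping layer-like cells and 19 of 66 within meso-endoderm-like cells. Those at least 2-fold higher were 2 of 28, 5 of 66, and 7 of 100 within ectoderm-like cells. Fewer members reached 50 UMIs in a class. Shares of all genes were not computed for these alternatives, so their counts stand without a background. The background of the main setting changed with abundance and cannot be carried over.

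The family's log2 ratio stayed below 0 in all 12 alternatives. It was -0.51 with median-of-ratios scaling, -0.37, -0.62 and -0.54 within enveloping layer-, ectoderm- and meso-endoderm-like cells, -0.62 as a mean over cells, -0.58 in thinned cells, and -0.54, -0.56 and -0.38 without the first 5, the first 10 or the nearly absent members.

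The enveloping layer-like log2 fold was -2.12 in MZwnt11/slb and -2.03 in wildtype without its deep cluster, and -1.68 in MZwnt11/slb and -1.75 in wildtype in thinned cells; without the first 5 members it was -1.57 in wildtype. These were chosen after seeing the data, except the thinning. The ectoderm-like fold was 0.37 in MZwnt11/slb and 0.43 in wildtype at resolution 2, and in wildtype 0.62 at resolution 0.5, 0.65 without sample-wise correction, 0.67 after cells under 1000 UMIs or over 10% mitochondrial UMIs were removed, and 0.63 in thinned cells. Without sample-wise correction the ectoderm-like clusters of MZwnt11/slb stayed unnamed, so no value can be given. The share of cells with a family UMI without thinning was 79.4% in MZwnt11/slb and 85.8% in wildtype for enveloping layer-like, and 98.1% in MZwnt11/slb and 99.2% in wildtype for ectoderm-like cells. Log2 ratios were recomputed for 31 members, which were the 10 with the most UMIs, the nearly absent ones and further extreme ratios. Of the 62 values, 60 kept their direction, and both exceptions were znf1048, whose interval held 0 throughout. Median-of-ratios scaling moved each ratio by 0.083, and all but that of znf1048 lay further from 0. Their direction could not change under that setting, so this count is no check of it. No paired analysis was possible because each genotype has 1 library, and the likeness of member sequences was not run.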
